A study of Capra hircus with 9 samples.

Results

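The BCL2 family decides at the mitochondrion whether a cell starts apoptosis, and 10 of its genes were followed here through the goat mammary gland in late lactation (LL), the dry period (DP) and late gestation (LG). They were chosen by symbol, as the rows of the deposited expression table named BCL2, BCL2L1, MCL1, BCL2A1, BAK1, BAD, BID, BCL2L11, PMAIP1 and BBC3. All 10 were present among the 23499 genes of the table, and all 10 were among the 14701 genes that reached at least 0.5 FPKM (fragments per kilobase of gene, normalised to library size) in at least 3 of the 9 libraries and were tested. The libraries were made from whole mammary tissue of 9 healthy goats of the Laoshan dairy breed, all in the third parity and on average 4 years old, with 1 goat per library and 3 per stage. The LL goats were slaughtered 240 days postpartum, the DP goats 300 days postpartum and the LG goats 140 days after mating. No treatment or genetic change separated the stages, and whether the DP goats were pregnant is not given in the sources used here.

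The proteins of this family fall into groups by what they do at the outer mitochondrial membrane. The antiapoptotic members, here BCL2, BCL2L1 (BCL-XL), MCL1 and BCL2A1 (BFL-1), hold the effectors in check, and the effectors, here BAK1, form the pores through which cytochrome c leaves the mitochondrion. The BH3-only members, here BCL2L11 (BIM), BID, BAD, PMAIP1 (NOXA) and BBC3 (PUMA), carry stress and death signals by binding the antiapoptotic proteins or the effectors. When milk removal stops, secretory epithelium of the gland is lost by apoptosis, to a degree that differs between species, and is built anew before the next lactation. BCL2 family proteins are among the known controllers of that loss. The values below are RNA levels in whole tissue, in which fewer cells of a type and less RNA per cell cannot be told apart, and much of the regulation of these proteins happens after transcription.

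The libraries of the stages differed in their totals. Over all genes, FPKM added up to 940676 to 1157015 per LL library, 601250 to 616268 per DP library and 733277 to 768157 per LG library, and the median-ratio scaling factors by which the values were divided were 0.498 to 0.605, 1.44 to 1.53 and 1.198 to 1.31. The summed scaled FPKM of the milk genes CSN2 and LALBA was 163617 to 264229 for LL, 14.8 to 35.8 for DP and 3843 to 5297 for LG, and all 6 luminal epithelial markers were detected at every stage. Deposited FPKM are given for each library below, while fold changes and tests were computed on log2(scaled FPKM + 1), a scale that understates the change of low genes. Left unscaled, all genes together moved by a median log2 of 1.09 between LL and DP, 0.93 between LL and LG and −0.18 between DP and LG. A gene was called when its limma p-value with Benjamini-Hochberg adjustment over all genes tested was below 0.05 and its log2 fold change was at least 1 in either direction. FPKM carry no read counts, so the depth behind each value is unknown.

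Of the 10 genes, 3 were called in DP against LL, with BCL2A1 and BBC3 higher and BCL2L11 lower, beside 22.6% of all genes tested (13.8% higher and 8.79% lower). In LG against LL 3 were called, with BCL2A1 and BAK1 higher and BCL2L11 lower, beside 17.3% of all genes (10.7% higher and 6.61% lower). In LG against DP only BAK1 was called, as higher, beside 13.3% of all genes (6.37% higher and 6.88% lower). By the adjusted p alone 6, 4 and 5 of the 10 genes passed in these comparisons, where 56.9%, 50.2% and 34.8% of all genes did, and 7 of 10 passed an F test over the stages, where 70.0% did. These shares of 10 genes are near the background, and the results below concern single genes rather than the family as a whole. The stage comparisons share libraries, since LL stands in DP against LL and in LG against LL, so calls of a gene in both of these do not count as independent. The median log2 fold change of the 10 genes was 0.36, 0.25 and −0.38 in DP against LL, LG against LL and LG against DP, where the medians of all genes tested were 0.00406, 0.0194 and 0.00833. Without scaling, 7 members were called higher and 1 lower in DP against LL, where 56.8% of all genes were called, 6 higher and 1 lower in LG against LL (47.9%), and none higher and 1 lower in LG against DP (15.6%).

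**Figure D1:**
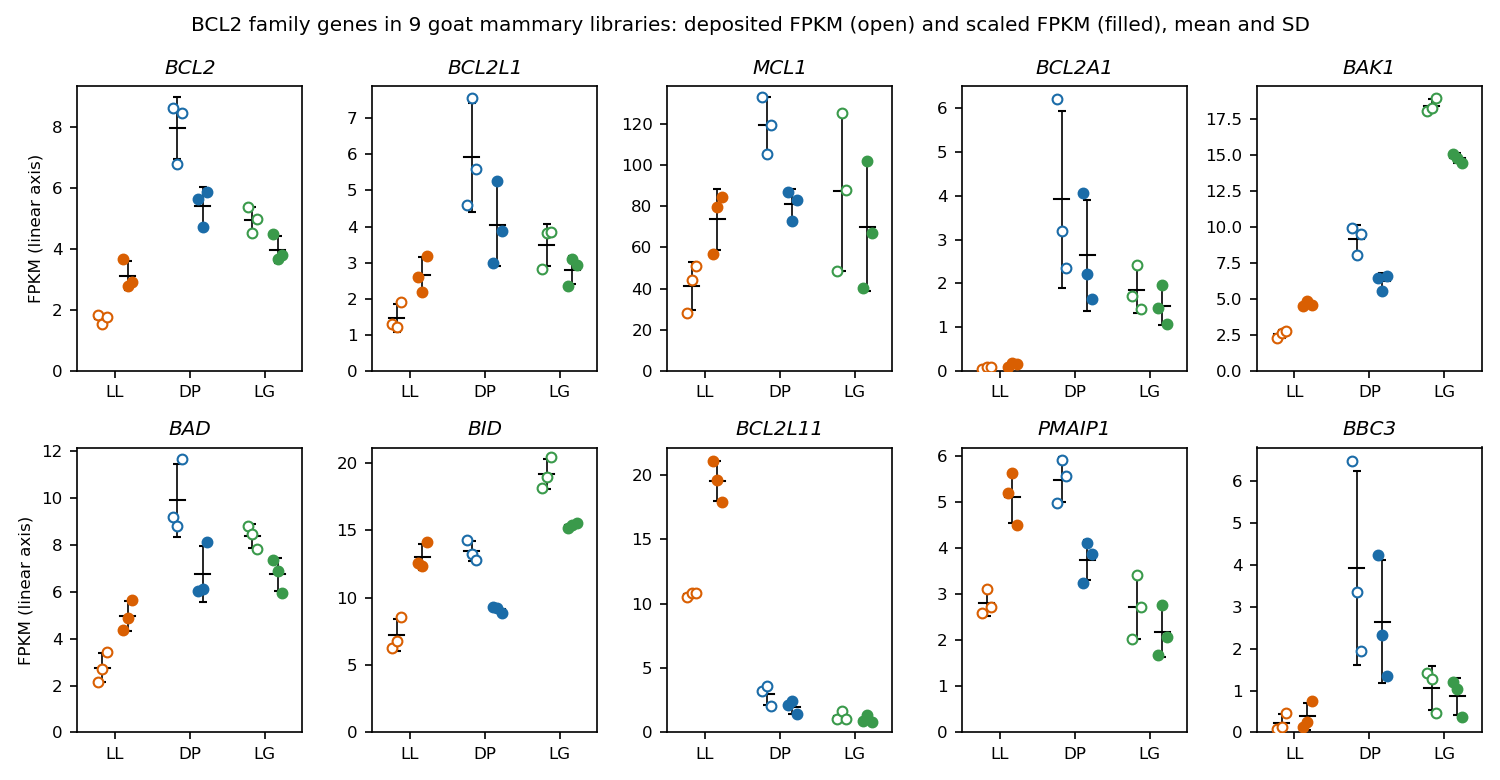
Deposited FPKM (open points) and scaled FPKM (filled points) of the 10 genes on linear axes, 1 panel per gene, with a point for each of the 3 libraries of a stage and black bars for the stage mean and SD. In deposited FPKM BCL2L11 lies at 10.5 to 10.9 for LL and at 1.04 to 3.57 for DP and LG, whereas BAK1 lies at 2.26 to 2.76 for LL and at 18.1 to 19.0 for LG.

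MCL1 had the highest deposited FPKM of the 10 genes in every library. In LL it was followed by BCL2L11 and then BID, each clear of its neighbours, after which PMAIP1, BAD and BAK1 overlapped in range, as did BCL2 and BCL2L1, and BBC3 and BCL2A1 at the low end. In DP BID came second, and from BAD and BAK1 down to BCL2A1 and BCL2L11 each gene overlapped in range with the next. In LG BID and BAK1 overlapped below MCL1, BAD and BCL2 followed separately, and the remaining 5 genes overlapped in sequence. BCL2L11 therefore stood second of 10 in LL and among the 5 lowest genes in both DP and LG.

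BCL2L11 (gene 102171716, chromosome 11 from 1048172 to 1119479, minus strand, ARS1.2) encodes BIM, a BH3-only protein that binds every antiapoptotic member and can activate the effectors directly. Its deposited FPKM were 10.49, 10.85 and 10.86 in the LL libraries, 3.25, 3.57 and 2.03 in DP and 1.04, 1.68 and 1.07 in LG. The stages did not overlap on this scale, although the LL libraries were those in which most other genes read low. The scaled FPKM averaged 19.5 ± 1.57 (SD, n = 3) for LL, 2.005 ± 0.544 for DP and 1.01 ± 0.302 for LG, so that the LL mean was 9.75-fold higher than DP and 19.3-fold higher than LG. On the log2 scale BCL2L11 differed by −2.79 (SE 0.16, adjusted p = 2.88e-06) in DP against LL and −3.36 (SE 0.16, adjusted p = 1.62e-06) in LG against LL. Among all genes tested, 1.63% were lower than this in DP against LL and 0.789% in LG against LL. LG and DP differed by −0.57 (adjusted p = 0.0225), which is short of the fold threshold. Both calls against LL were retained without scaling, at −1.59 and −2.39.

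BID (gene 102176106, chromosome 5 from 108058152 to 108075830, minus strand) encodes the BH3-only protein that caspase-8 cleaves, which links death receptors to the mitochondrion. The deposited FPKM of BID were 6.26, 6.82 and 8.55 for LL, 14.26, 13.27 and 12.79 for DP and 18.18, 18.95 and 20.43 for LG. After scaling the order changed, with means of 13.0 ± 0.971 for LL, 9.14 ± 0.23 for DP and 15.4 ± 0.183 for LG (SD, n = 3). BID was not called in any comparison, with log2 fold changes of −0.46 (adjusted p = 0.00645) in DP against LL, 0.23 (adjusted p = 0.119) in LG against LL and 0.69 (adjusted p = 0.00153) in LG against DP. The direction in DP against LL rests on the scaling, since the log2 fold change without it was 0.82. In LG against LL the unscaled log2 fold change was 1.31, which was called.

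PMAIP1 (gene 102175063, chromosome 24 from 58947515 to 58950762, plus strand) encodes NOXA, which mainly binds MCL1 and BCL2A1 and promotes the degradation of MCL1. PMAIP1 had deposited FPKM of 2.59, 3.11 and 2.72 for LL, 4.97, 5.92 and 5.57 for DP and 2.02, 3.41 and 2.72 for LG, so LL and LG overlapped. The mean scaled FPKM was 5.11 for LL, 3.74 for DP and 2.17 for LG. In LG against LL the log2 fold change of −0.95 (SE 0.15, adjusted p = 0.000714) lay just inside the fold threshold, and it passed that threshold with a pseudocount of 0.1 (−1.22), without LL replicate 3 (−1.05) and without LG replicate 2 (−1.08). Without scaling the difference was −0.049 (adjusted p = 0.784), so that it rests on the scaling. The log2 fold changes of −0.36 (adjusted p = 0.058) in DP against LL and −0.59 (adjusted p = 0.0129) in LG against DP were not called, and the former was 0.77 without scaling.

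BBC3 (gene 102171367, chromosome 18 from 55269568 to 55278588, minus strand) encodes PUMA, a BH3-only protein that can bind every antiapoptotic member. Deposited FPKM of BBC3 were 0.07, 0.14 and 0.46 for LL, 6.48, 3.35 and 1.95 for DP and 1.43, 1.28 and 0.47 for LG. All DP libraries lay above all others, and the lowest LG library was within 0.01 FPKM of the highest LL library. BBC3 was higher in DP than in LL by a log2 fold change of 1.34 (SE 0.30, adjusted p = 0.00451), which fell to 0.85 (adjusted p = 0.0519) with quantile normalization and to 1.01 without DP replicate 1, the highest library. In LG against LL the log2 fold change was 0.42 (adjusted p = 0.27). In LG against DP it was −0.92 (SE 0.30, adjusted p = 0.0402), inside the fold threshold, although without DP replicate 3 it was −1.17 and without scaling −1.19, both of which were called. The adjusted p of that comparison passed 0.05 in several alternatives, reaching 0.129 without LG replicate 3 (−0.70).

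BAD (gene 102189930, chromosome 29 from 42995894 to 43009116, minus strand) encodes a BH3-only protein that is held inactive by phosphorylation through survival kinases such as AKT. Its deposited FPKM were 2.17, 2.69 and 3.43 for LL, 9.2, 8.82 and 11.67 for DP and 8.82, 8.48 and 7.83 for LG, with DP and LG sharing a value of 8.82. With scaling, BAD was not called in any comparison. The log2 fold changes were 0.37 (adjusted p = 0.0514) in DP against LL and 0.38 (adjusted p = 0.0551) in LG against LL. Without scaling these were 1.54 and 1.33, and both were called. In LG against DP the log2 fold change was 0.0033, with a 95% confidence interval from −0.32 to 0.33.

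BAK1 (gene 102170562, chromosome 23 from 40968116 to 40974446, plus strand) encodes BAK, an effector that sits in the outer mitochondrial membrane and forms its pores once activated. In FPKM, BAK1 was deposited at 2.26, 2.67 and 2.76 for LL, 9.9, 8.04 and 9.52 for DP and 18.09, 18.27 and 18.97 for LG. The stages were clear of one another on both scales, with scaled means of 4.64 ± 0.160 for LL, 6.22 ± 0.563 for DP and 14.8 ± 0.335 for LG (SD, n = 3). The LG mean was 3.19-fold the LL mean and 2.38-fold the DP mean on the scaled FPKM. BAK1 was higher in LG than in LL by a log2 fold change of 1.48 (SE 0.11, adjusted p = 1.09e-05) and than in DP by 1.13 (SE 0.11, adjusted p = 0.00013). The latter became 0.94 without scaling, which is under the fold threshold. In DP against LL the log2 fold change of 0.35 (adjusted p = 0.0201) was not called, whereas without scaling it was 1.51 and was called. On leaving out a library, the adjusted p of BAK1 in DP against LL ranged from 0.0188 (without LG replicate 3) to 0.0655 (without LL replicate 1). It passed 0.05 without any 1 of the LL libraries and without DP replicate 1 or DP replicate 3. The last 140 bases of BAK1 overlap the uncharacterised gene LOC106503484 on the opposite strand, which was listed at 0.24 to 3.03 FPKM, and because the library kit does not mark strand the reads of the overlap cannot be told apart.

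MCL1 (gene 102185798, chromosome 3 from 100037524 to 100042316, minus strand) encodes a short-lived antiapoptotic protein whose loss in mice impairs the mammary epithelium. The libraries held 28.3, 44.11 and 51.23 for LL, 133.08, 105.25 and 119.69 for DP and 48.56, 125.62 and 87.85 for LG, in deposited FPKM. After scaling the means were 73.7 ± 14.8 for LL, 81.1 ± 7.26 for DP and 69.7 ± 30.7 for LG (SD, n = 3), and the highest LG library was 2.51-fold the lowest. No difference was called, and the log2 fold change in DP against LL was 0.15 with a 95% confidence interval from −0.52 to 0.83 (adjusted p = 0.681). That value depends on the scaling, since it was 0.90 (adjusted p = 0.0345, not called) with quantile normalization and 1.55 (adjusted p = 0.00134, called) without scaling. The intervals were −0.83 to 0.52 for LG against LL and −0.98 to 0.37 for LG against DP.

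BCL2 (gene 100861254, chromosome 24 from 61577610 to 61770906, minus strand), the antiapoptotic gene that gave the family its name, had deposited FPKM of 1.83, 1.53 and 1.77 for LL, 8.62, 6.78 and 8.43 for DP and 5.35, 4.52 and 4.97 for LG. In deposited FPKM the stages did not overlap, and DP was the highest. In scaled FPKM DP was still clear of the others, but LL replicate 1 (3.68) lay above LG replicate 2 (3.66). The mean scaled FPKM was 3.12 for LL, 5.40 for DP and 3.97 for LG, and the log2 fold change in DP against LL was 0.64 (SE 0.13, adjusted p = 0.0028), past the p threshold and short of the fold threshold. It was 0.27 (adjusted p = 0.108) in LG against LL and −0.36 (adjusted p = 0.0555) in LG against DP. Without scaling BCL2 was called higher against LL in both DP (1.72) and LG (1.13). BCL2 overlaps LOC108633783 on the opposite strand over 1594 bases, and that gene was listed at 1.67 to 2.91 FPKM.

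BCL2L1 (gene 102180684, chromosome 13 from 60528848 to 60582326, minus strand) gives rise to the antiapoptotic BCL-XL and, by splicing, to the proapoptotic BCL-XS, which a gene level value does not separate. Its deposited FPKM were 1.29, 1.21 and 1.92 for LL, 4.59, 7.57 and 5.59 for DP and 2.82, 3.82 and 3.84 for LG. DP also had the highest mean scaled FPKM, with 2.65 for LL, 4.05 for DP and 2.79 for LG. The scaled ranges overlapped, since DP replicate 1 (3.00) lay below LL replicate 3 (3.17) and LG replicate 2 (3.10). None of its log2 fold changes reached an adjusted p of 0.05, at 0.45 (adjusted p = 0.0506) in DP against LL, 0.06 (adjusted p = 0.805) in LG against LL and −0.39 (adjusted p = 0.111) in LG against DP. The DP against LL value depends on the scaling, since it was 1.47 without scaling, which was called. On leaving out a library, its adjusted p ranged from 0.0167 (without DP replicate 1) to 0.183 (without DP replicate 2).

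BCL2A1 (gene 102172845, chromosome 21 from 25605527 to 25614883, minus strand) encodes an antiapoptotic protein known mainly from leukocytes, where it is a target of NF-κB. Its deposited FPKM were 0.04, 0.1 and 0.09 for LL, 6.2, 3.2 and 2.35 for DP and 1.72, 2.42 and 1.41 for LG. No LL library overlapped with the others, and LL values this low are known only to the 2 decimals of the table. The mean scaled FPKM was 0.137 ± 0.0513 for LL, 2.64 ± 1.26 for DP and 1.49 ± 0.447 for LG (SD, n = 3). BCL2A1 was higher by 1.62 (SE 0.23, adjusted p = 0.000316) on the log2 scale of DP against LL and by 1.12 (SE 0.23, adjusted p = 0.00317) in LG against LL, and with a pseudocount of 0.1 these became 3.46 and 2.74. The call in LG against LL was lost with quantile normalization (0.85), with LL and LG alone in the fit (0.997) and without LG replicate 2 (0.97). In LG against DP the log2 fold change was −0.51 (adjusted p = 0.113).

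Lymphocyte markers were higher in the stages in which BCL2A1 was called higher. Of 6 tested lymphocyte markers 5 were called higher in DP against LL and 3 in LG against LL, and the summed scaled FPKM of 9 lymphocyte markers was 6.83 to 7.35 for LL, 18.4 to 69.7 for DP and 21.1 to 36.6 for LG. CD27 was left out of this sum because its values follow those of its neighbour TAPBPL, and with it the sums were 14.2 to 16.9, 28.0 to 80.5 and 33.5 to 54.3. Macrophage markers were summed to 70.0 to 100.1 scaled FPKM for LL, 190.2 to 234 for DP and 82.1 to 92.7 for LG, with 4 of 6 tested markers called higher in DP against LL, and none higher and 2 lower in LG against LL. Of 4 neutrophil markers none was called in DP against LL, and 1 was higher and 2 lower in LG against LL. DP replicate 1 held the highest lymphocyte, neutrophil and adipocyte sums of the 9 libraries, and also the highest values of BCL2A1 (6.2 FPKM) and BBC3 (6.48 FPKM). Without this library the log2 fold changes in DP against LL were 1.32 for BCL2A1 and 1.01 for BBC3, both still called. Within a library, the ratio of BCL2A1 to the T cell gene CD3E was 0.0299 to 0.0862 for LL, 0.261 to 0.357 for DP and 0.260 to 0.331 for LG, and its ratio to the macrophage gene CSF1R was 0.0064 to 0.0191, 0.0640 to 0.120 and 0.120 to 0.192. Both BCL2A1 ratios were thus higher in every DP and LG library than in any LL library. This depends on the T cell gene chosen. Against CD2 the LL libraries were likewise apart. Against CD3D, CD3G and CD5, which had 0.04 to 0.26 FPKM in LL, the BCL2A1 ratios of LL overlapped with those of DP and LG. The ratio of BBC3 to CD3E was 0.0522 to 0.309 for LL, 0.273 to 0.347 for DP and 0.104 to 0.216 for LG, and here the LL range overlapped with both other stages. The part of leukocytes in the BCL2A1 and BBC3 differences was not tested.

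**Figure D2:**
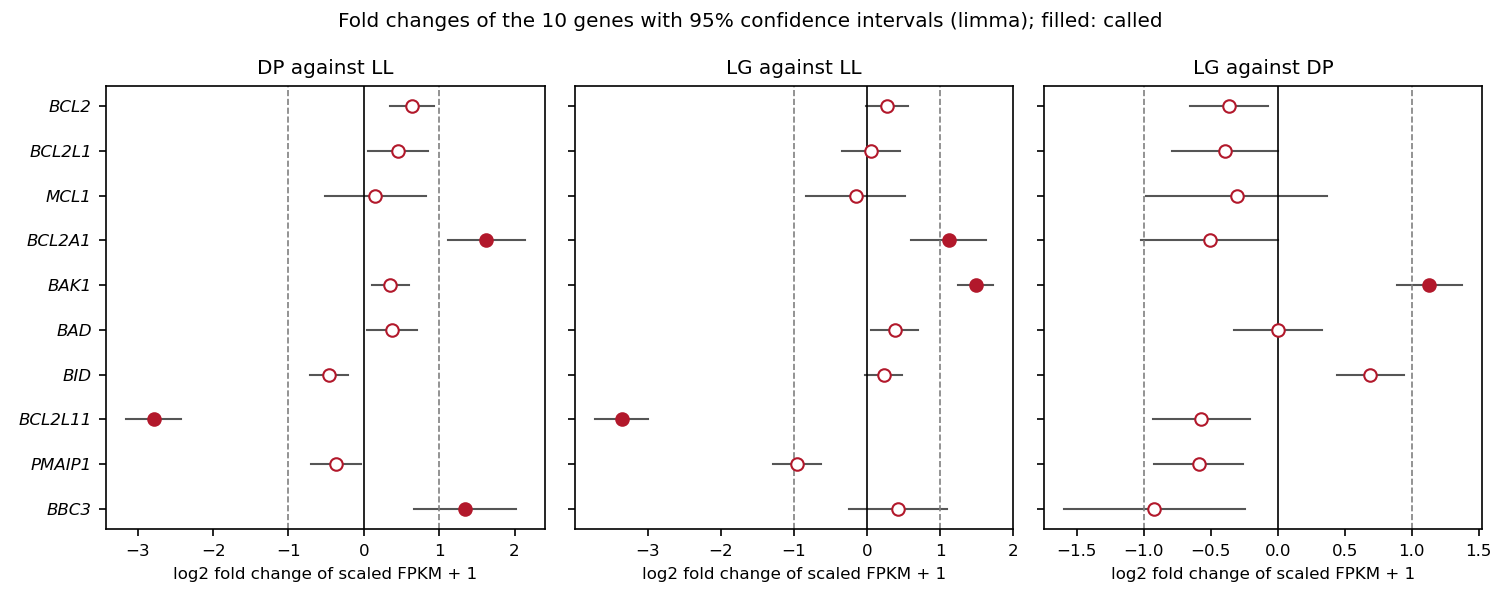
Log2 fold changes of scaled FPKM + 1 for the 10 genes in the 3 stage comparisons, with 95% confidence intervals from limma, dashed lines at the fold threshold of 1 and filled points for called genes. BCL2L11 stands alone at −2.79 and −3.36 against LL, and BAK1 is the only filled point in LG against DP.

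Ratios between genes of the same library do not depend on the scaling. The ratio of BCL2L11 to MCL1 was 0.212 to 0.371 for LL, 0.0170 to 0.0339 for DP and 0.0122 to 0.0214 for LG. The ratio of BCL2L11 to BCL2 was 5.73 to 7.09 for LL, 0.241 to 0.527 for DP and 0.194 to 0.372 for LG, and that to BCL2L1 was 5.66 to 8.97, 0.363 to 0.708 and 0.279 to 0.440. Every LL library thus had several times more BCL2L11 than BCL2 or BCL2L1 per length, and every DP and LG library had less. Relative to BAK1, BCL2L11 was at 3.93 to 4.64 for LL, 0.213 to 0.444 for DP and 0.0564 to 0.0920 for LG, so that the order of the genes was inverted between LL and the other stages. The ratio of BAK1 to BID was 0.323 to 0.392 for LL, 0.606 to 0.744 for DP and 0.929 to 0.995 for LG, and that of BAK1 to BCL2 was 3.38 to 4.04 in LG against at most 1.75 for LL and 1.19 for DP. Against the epithelial gene EPCAM, BCL2L11 was at 0.291 to 0.429 for LL, 0.0548 to 0.0696 for DP and 0.0145 to 0.0264 for LG, and against KRT8, a keratin of luminal cells, at 0.229 to 0.292, 0.0161 to 0.0305 and 0.0105 to 0.0185. The ratios to the luminal genes KRT18, KRT19 and CDH1 were likewise higher in every LL library than in any DP or LG library. The exception was ELF5, a regulator of alveolar cells, to which BCL2L11 stood at 0.0290 to 0.0408 for LL, 0.0540 to 0.0823 for DP and 0.00164 to 0.00333 for LG, so that this ratio was highest in DP. ELF5 was itself called lower in DP against LL (−4.19), whereas the other 5 luminal markers were not called against LL.

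**Figure D3:**
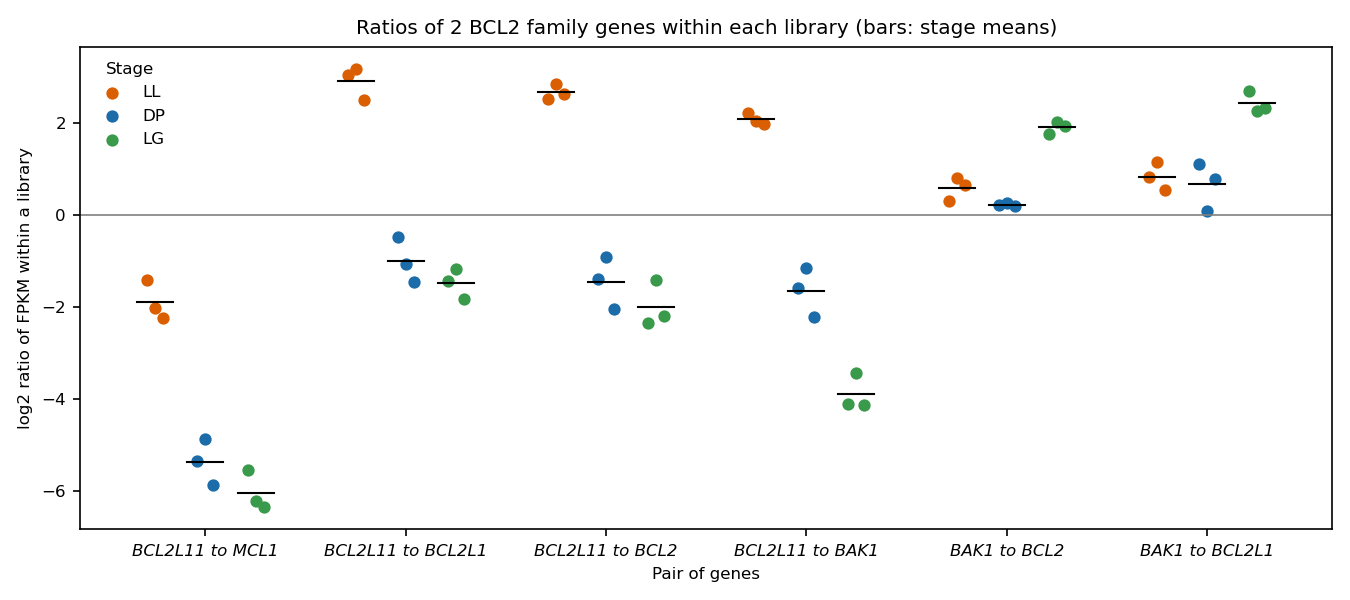
Log2 ratios of FPKM within a library for 6 pairs of the 10 genes, with 1 point per library, black bars at the stage means and a line at 0, where both genes have the same FPKM. The ratios of BCL2L11 to MCL1, BCL2, BCL2L1 and BAK1 are highest in the 3 LL libraries, with no overlap with DP or LG.

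The shares of some genes in the summed FPKM of the 10 genes differed between the stages. MCL1 held 57.5% ± 5.51 of the sum for LL, 65.5% ± 1.74 for DP and 56.8% ± 11.0 for LG (SD, n = 3). The MCL1 range of LG overlapped with those of LL and DP. BCL2L11 held 15.6% ± 3.08, 1.63% ± 0.512 and 0.857% ± 0.127, and BAK1 held 3.68%, 5.03% and 13.0%. The 4 antiapoptotic genes together held 62.2% ± 4.68 of the sum for LL, 75.3% ± 1.06 for DP and 64.0% ± 9.23 for LG, with LL and LG overlapping. The 5 BH3-only genes together held 34.1% ± 4.30 of the sum for LL, 19.7% ± 1.21 for DP and 22.9% ± 5.70 for LG, with DP and LG overlapping. Their summed scaled FPKM was 42.7 to 43.4 for LL, 23.6 to 25.0 for DP and 24.7 to 27.4 for LG. Within this BH3-only sum the leading gene changed, since BCL2L11 made up 41.7% to 48.6% for LL, 5.97% to 10.2% for DP and 3.29% to 4.97% for LG, while BID made up 28.9% to 32.9%, 37.4% to 38.0% and 56.1% to 62.8%. BCL2L11 was the only BH3-only gene called lower against LL.

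**Figure D4:**
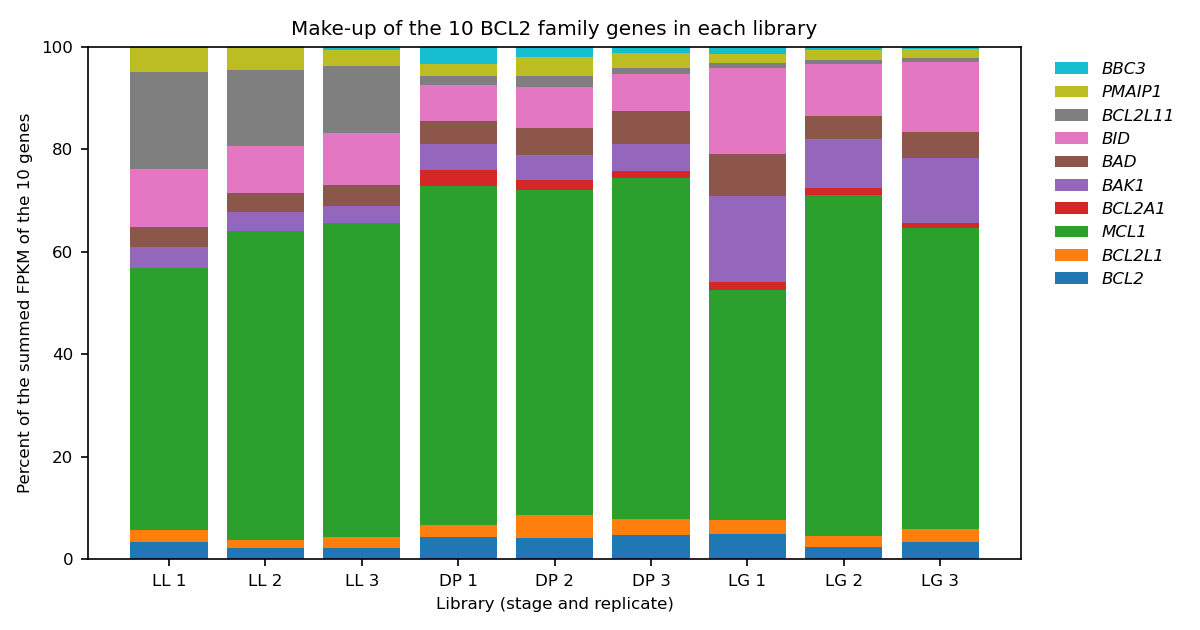
Share of each of the 10 genes in their summed FPKM in percent, as 1 stacked bar per library. MCL1 is the widest band throughout, the BCL2L11 band averages 15.6% for LL and under 2% for DP and LG, and the BAK1 band averages 13.0% for LG.

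Other genes of the family were covered by a list of 15, of which 14 were in the table and 12 were tested. In DP against LL 2 were called higher and 2 lower, in LG against LL again 2 higher and 2 lower, and in LG against DP none higher and 1 lower. Of all genes tested, 22.6%, 17.3% and 13.3% were called in these comparisons. BOK, an effector relative of BAK, rose by 2.06 (log2) in DP against LL and by 1.10 in LG against LL, from 0.05 to 0.16 FPKM for LL to 4.8 to 7.55 for DP and 1.61 to 2.54 for LG. BCL2L12 rose by 1.64 and 1.73. BCL2L15 fell by 1.84 and 2.61, with 2.3, 7.06 and 3.03 FPKM for LL, 1.17 to 2.46 for DP and 0.06 to 0.54 for LG. BNIP3, which is known for mitophagy and induction by hypoxia, fell by 1.24 and 1.98, and its log2 fold change in DP against LL was 0.11 without scaling. BMF, a BH3-only gene known from cells that lose attachment, fell by 1.29 in LG against DP, from 15.51, 10.02 and 4.79 FPKM to 2.64, 3.98 and 1.21. In LL it had 1.48, 1.33 and 1.56 FPKM. The log2 fold change of BMF was 0.996 (adjusted p = 0.0345) in DP against LL, just inside the fold threshold, and −0.30 (adjusted p = 0.504) in LG against LL. Without scaling the counts were 9 higher and none lower, 4 higher and 1 lower, and none higher and 5 lower, where 56.8%, 47.9% and 15.6% of all genes were called. The values of the effector BAX followed those of FTL, a neighbouring gene on the same strand, along a straight line with a residual of 0.183% of its range, and those of BNIP1 and BNIP2 followed their neighbours CREBRF and GTF2A2 in the same way, so these 3 genes, which are among the 12 tested and were not called, are not separate measurements. Among the 10 members, none of 119 pairs with neighbouring genes was linked in this way. BCL2L2 was not analysed here.

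Downstream of the pores, cytochrome c assembles APAF1 and caspase-9 into the apoptosome, which starts the cleavage of cell proteins. Of 11 genes of this step that are reported here 10 were tested. In both DP and LG against LL 1 was called higher and 1 lower, beside 22.6% and 17.3% of all genes, while none was called in LG against DP (13.3%). Without scaling 7 were called higher and 1 lower in DP against LL, and 8 higher and 1 lower in LG against LL, beside 56.8% and 47.9% of all genes. CASP9, which encodes the initiator of the apoptosome, had 15.5, 18.89 and 17.87 FPKM for LL, 4.15, 2.8 and 1.82 for DP and 2.75, 3.3 and 2.48 for LG. It fell by 3.48 in DP against LL (SE 0.18, adjusted p = 1.44e-06) and by 3.31 in LG against LL (SE 0.18, adjusted p = 2.62e-06) on the log2 scale, and was called lower also without scaling and with quantile normalization. CASP9 and BCL2L11 were thus called lower in the same comparisons. ENDOG, a mitochondrial nuclease, was the gene called higher, with 0.07 to 0.11 FPKM for LL, 2.1 to 4.01 for DP and 2.62 to 3.05 for LG. APAF1 had log2 fold changes of 0.56 (adjusted p = 0.0128) and 0.60 (adjusted p = 0.0102) against LL and was not called.

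Known regulators of the family were covered by a list of 13 genes reported here, of which 12 were tested. In DP against LL none was called higher and 3 lower, in LG against LL none higher and 2 lower, and in LG against DP 1 higher and none lower. The shares of all genes called were 22.6%, 17.3% and 13.3%. ATF4 and DDIT3, genes of the integrated stress response, fell by 1.84 and 1.23 in DP against LL and by 1.87 and 1.72 in LG against LL, but were not called lower without scaling. There 6 regulators were called higher and none lower in both comparisons, beside 56.8% and 47.9% of all genes called. AKT1, a kinase that inactivates BAD, fell by 1.43 in DP against LL (not called lower without scaling) and rose by 1.52 in LG against DP, with 6.66, 8.31 and 10.24 FPKM for LL, 9.08, 5.65 and 7.46 for DP and 23.03, 16.82 and 20.58 for LG.

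**Figure D5:**
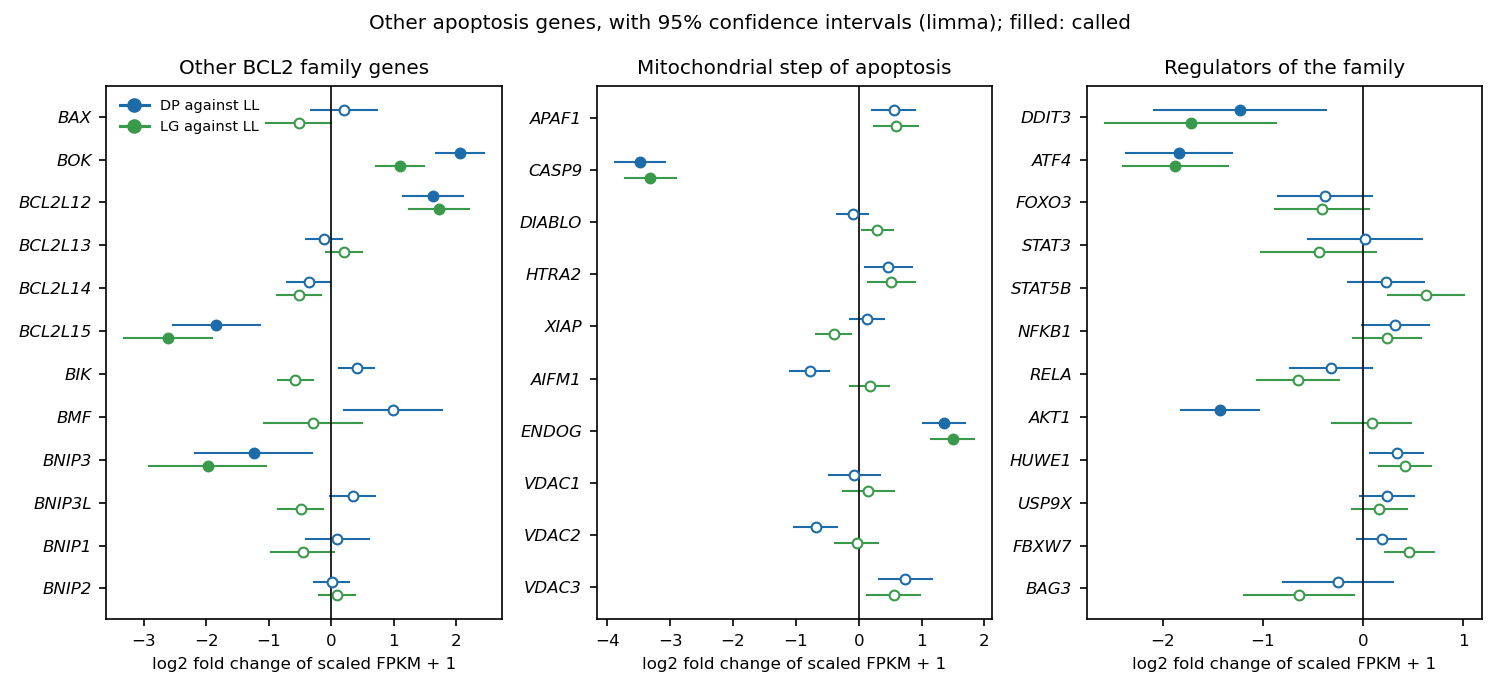
Log2 fold changes of scaled FPKM + 1 against LL for the tested genes of the other BCL2 family, the mitochondrial step and the regulators, with 95% confidence intervals from limma, DP in blue, LG in green and filled points for called genes. CASP9 lies at −3.48 and −3.31, and BAX, BNIP1 and BNIP2 are shown although their values follow those of a neighbouring gene.

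Over the 9 libraries, the genes whose log2 scaled FPKM ran most like that of BCL2L11, the member with the largest F statistic over the stages, were LYPD6B (Pearson r = 0.995), LPIN1 (0.992), a phosphatidate phosphatase of lipid synthesis, and KAT5 (0.992), a histone acetyltransferase. The libraries fall into 3 stages, which every such coefficient shares. Of the 14701 genes tested, 218 had r above 0.95, so that a high coefficient was not particular to the genes named. LPIN1 had 45.66, 73.58 and 59.28 FPKM for LL, 6.66, 7.03 and 3.89 for DP and 0.84, 1.16 and 1.76 for LG. KAT5 had 7.24 to 8.33 deposited FPKM for LL, 11.93 to 13.22 for DP and 9.2 to 9.95 for LG, so that before scaling its LL values were the lowest, unlike those of BCL2L11.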

How the data were processed

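Mammary gland RNA of 9 goats was sequenced by the authors from TruSeq libraries. Per the labels, reads were handled with FastQC, Trimmomatic, HISAT2, SAMtools and HTSeq, and per the study's methods with HISAT2 and StringTie. The deposited table gives 1 value per gene and library and names no unit, and its values were taken as FPKM computed by the authors. RefSeq ARS1.2 held 23465 of its 23499 identifiers, all at the same start and end.

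Median-ratio factors from 15905 genes scaled the FPKM, log2 was taken after adding 1, and limma 3.58.1 (R 4.3.3) tested 14701 genes (mean-variance trend, all 9 libraries, no covariates, two-sided). Ratios, sums and shares were computed with Python 3.11.15. The fit was tested on simulated data. Libraries are single goats grouped by stage from the labels. All 10 members were named whatever their result, and of the other lists the called genes and a few that the text defines. The members and lists were chosen with earlier results of these data known, and ratios to marker genes and reduced marker sums after values were seen. Some genes of the other lists are not reported here and stay out of the counts and the plot of those lists. An exact permutation test of 3 against 3 goats cannot reach a two-sided p below 0.1, and none was used. Replicate numbers did not pair the goats. Same-numbered libraries of different stages, which come from different animals, had deviations correlated at −0.106 to 0.201, and differently numbered ones at −0.223 to 0.0722. Of the same-numbered pairs 3 of 9 lay above 0.1, and of the others 0 of 18. Alternatives covered the scaling, pseudocount, filter on low values, trend, stages in the fit, a replicate block and each library left out. Counts of genes by an F test over the stages were added after the data were seen.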

Additional observations from a re-analysis of the deposited data

How the results depend on the processing

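Of 506 values of the 10 genes under the alternatives, 472 kept their direction and their combined call (adjusted p and fold together). Of the rest, 16 reversed, whatever their call, and with the direction kept 13 became called and 5 were no longer called. The reversed value of MCL1 in LG against LL without scaling (1.005, adjusted p = 0.0177) was called. Of the 472, 45 lay on the other side of an adjusted p of 0.05, among them PMAIP1 in LG against LL without scaling (−0.049). Without scaling between libraries 8 members were called in DP against LL (56.8% of all genes) and 7 in LG against LL (47.9%). The adjusted p alone passed 6 members in DP against LL (56.9% of all genes), 4 for LG against LL (50.2%) and 5 for LG against DP (34.8%). Leaving out each library in turn gave 3 to 4 members in LG against LL, beside 16.4% to 17.6% of all genes. In LG against DP it gave 1 to 2, beside 11.9% to 13.7%, where BBC3 joined without DP replicate 3. With the replicate block the counts stayed at 3, 3 and 1, beside 22.7%, 17.4% and 13.5% of all genes, and it changed no call of a member. A minimum of 2 FPKM in 3 libraries left 9 members. By the F test over the stages 7 of the 10 genes had an adjusted p under 0.05, beside 70.0% of all genes. Directions reversed for BID (0.82), PMAIP1 (0.77) and BNIP3 (0.11, called lower with scaling) in DP against LL without scaling, MCL1 in LG against LL without scaling (1.005) and with quantile normalization (0.19), BBC3 in LG against LL with quantile normalization (−0.020), and BAD in LG against DP without scaling (−0.21) and with quantile normalization (−0.034). On leaving out a library, MCL1 ranged over −0.038 to 0.24 for DP against LL, −0.47 to 0.18 for LG against LL and −0.63 to 0.030 for LG against DP, BCL2L1 over −0.046 to 0.15 in LG against LL and BAD over −0.060 to 0.13 in LG against DP. The deposited FPKM hold no counts, so the precision of values under 0.5 FPKM, such as BCL2A1 and BBC3 in LL, is unknown.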

Other observations

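Other cell types differed between the stages in the same libraries. The summed scaled FPKM of 5 fibroblast markers was 151 to 235 for LL, 359 to 1593 for DP and 253 to 484 for LG, with 4 of 5 called higher in DP against LL. Luminal markers were summed to 819 to 1106 for LL, 269 to 522 for DP and 733 to 891 for LG, and of 6 only ELF5 was called, as lower in DP against LL and higher in LG against DP. These sums rest on ELF5, without which they were 343 to 431, 243 to 478 and 324 to 393 and overlapped between all stages. The values of KRT5, KRT14 and PECAM1 follow those of neighbouring genes on the same strand, and without them 3 myoepithelial markers gave 72.8 to 100.1, 51.8 to 199.7 and 75.1 to 89.6 scaled FPKM for LL, DP and LG, and 3 endothelial markers 29.7 to 36.1, 27.4 to 73.0 and 26.5 to 36.4. Adipocyte markers gave 2.71 to 3.72, 2.57 to 20.4 and 1.14 to 1.69, and neutrophil markers 8.37 to 23.1, 10.3 to 38.0 and 4.67 to 11.97 scaled FPKM in LL, DP and LG. The B cell gene MS4A1 had 7.68 FPKM in DP replicate 1 and at most 0.16 FPKM in every other library.

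The LG libraries differed more from each other in MCL1 than in BAK1. The scaled FPKM of MCL1 had a coefficient of variation of 44.1% in LG, where BAK1 had a mean of 14.8 ± 0.335 (SD, n = 3).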
